A study of Mus musculus with 8 samples.

Results

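The enzymes that break down branched-chain amino acids (BCAA) and propionate, use ketone bodies and activate short-chain acids were followed as a set of 31 genes, chosen by their symbols with earlier results of these data known. All 31 were found among the 38340 genes for which expression could be summed, and all 31 had the mean of 1 FPKM (fragments per kilobase of transcript, scaled to the mapped fragments of the library) that a gene needed to be tested, as did 16065 genes in all. Poly(A)+ RNA of inguinal white adipose tissue (ING WAT), a subcutaneous fat depot, had been sequenced from 8 C57BL/6j mice, 4 at postnatal day 21 (PN21, weaning) and 4 at postnatal day 98 (PN98, young adulthood). The PN21 mice are m1, m49, m138 and m145 and the PN98 mice m35, m106, m114 and m125, and values are always given in that order. Per the study's methods, males were kept past weaning, so the PN98 mice were male, first on the purified diet AIN93G and later on AIN93M or a Western style diet (WSD). The sex of the sequenced PN21 mice and the later diet of the sequenced PN98 mice were not given in the sources used here. Age and what came with it, weaning and diet included, cannot be told apart.

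BCAA breakdown starts with the reversible transfer of the amino group of leucine, isoleucine or valine to 2-oxoglutarate, and goes on with the irreversible step of the branched-chain 2-oxoacid dehydrogenase (BCKDH) complex, which a kinase turns off and a phosphatase turns on. The carbon skeletons then take separate mitochondrial routes, leucine to acetyl-CoA and acetoacetate, valine to propionyl-CoA and isoleucine to both acetyl-CoA and propionyl-CoA. Differentiated adipocytes are known to break down BCAA and to use their carbon for fatty acids, and ketone bodies and acetate enter the same pool of acetyl-CoA.

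Between PN21 and PN98, none of the 31 genes passed an adjusted p of 0.05 (limma on log2(FPKM + 1), Benjamini-Hochberg adjustment over all 16065 genes), beside 5.25% of all genes (2.35% higher and 2.9% lower). An unadjusted p under 0.05 was reached by 7 of the 31 (22.6%), beside 27.2% of all genes. These were *Ivd*, *Auh*, *Acadsb*, *Aldh6a1*, *Abat* and *Acss3* with higher values at PN98, and *Bdh1* with lower values. The 6 members with higher values stand beside 8.2% of all genes, and 1 with lower values beside 19.0%. The 4 mice of one age did not overlap with those of the other in 4 members (12.9%), *Ivd*, *Auh*, *Acadsb* and *Acss3*, each with the higher values at PN98, where 6.06% of all genes were higher and 10% lower without overlap.

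Of the 31 log2 fold changes, 18 were above 0 and 13 below, where 5306 of all 16065 genes were above 0 and 10759 below. The median of the members was 0.12, while the median of all genes tested was −0.21. Of the members, 22 lay above the median of all genes. Scaling each mouse to nuclear genes moved the median of all genes to 0.014 and that of the members to 0.37, and median of ratios scaling moved them to −0.017 and 0.34. Under the first scaling 23 members were above 0 and under the second 22. *Auh* and *Ivd* passed an adjusted p of 0.05 after scaling to nuclear genes, where 4.92% of all genes passed (3.35% with higher values), and *Auh*, *Ivd* and *Acadsb* after median of ratios scaling, where 7.59% passed (4.77% with higher values). The number of members that pass thus depends on the scaling. The 4 named as free of overlap had log2 fold changes above 0 under both scalings. Leaving out a mouse could not turn the sign of a gene without overlap, so their sign in those fits adds nothing.

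**Figure D1:**
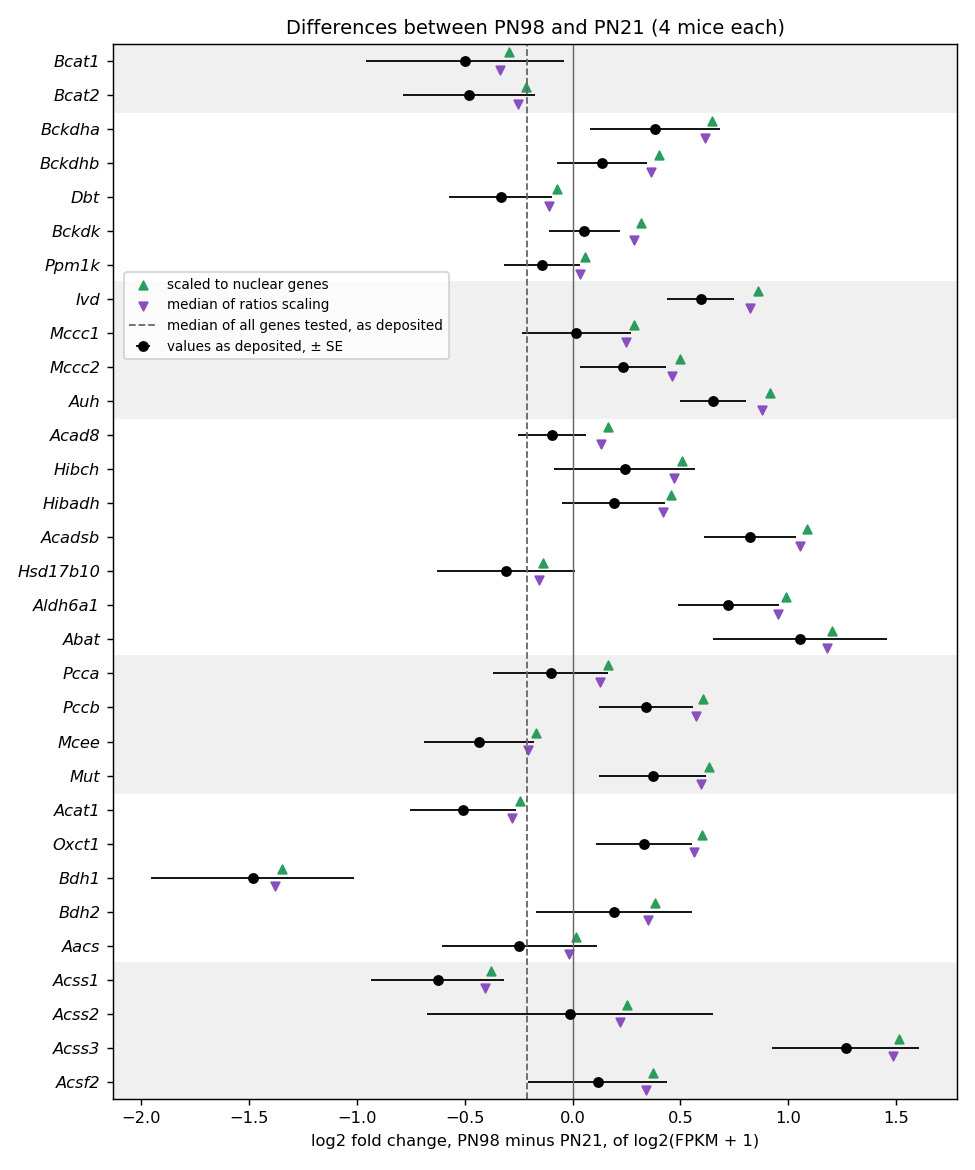
Log2 fold change of each of the 31 genes between PN98 and PN21 (horizontal axis, differences of log2(FPKM + 1), 4 mice per age), ordered by role in shaded blocks. Black points with bars are the values as deposited with their SE, triangles are the same differences after scaling to nuclear genes or by median of ratios, and the dashed line is the median of all genes tested (−0.21). Acss3 (1.26), Abat (1.05), Acadsb (0.82), Aldh6a1 (0.72), Auh (0.65) and Ivd (0.59) lie farthest right and Bdh1 (−1.48) farthest left.

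The tissue itself differed between the ages. *Adipoq*, the adipokine adiponectin and a marker of fat cells, had 1257, 1279, 817 and 947 FPKM at PN21 and 2696, 2512, 3653 and 2769 FPKM at PN98, and rose with a log2 fold change of 1.45 (SE 0.21, adjusted p = 0.0113). All 8 adipocyte markers listed had higher values at PN98, 4 of them past an adjusted p of 0.05, and their summed FPKM ran from 14178 to 25399.9 at PN21 and from 37502 to 47859.9 at PN98. *Ucp1*, the uncoupling protein of brown and beige fat cells, had 544, 649.9, 586 and 559 FPKM at PN21 and 7.41, 278, 56.3 and 356 FPKM at PN98 (log2 fold change −2.81, SE 1.07, adjusted p = 0.148). The 8 brown adipocyte markers summed to 3041 to 6463 FPKM at PN21 and 371 to 4229 FPKM at PN98, with 7 of 8 log2 fold changes below 0 and 1 past the test, lower. Summed skeletal muscle markers (6 of 8 measured, all with log2 fold changes above 0, 2 past the test) ran from 63.1 to 401 FPKM at PN21 and from 369 to 2031 FPKM at PN98. Lymphocyte markers (6 of 8 tested, all with log2 fold changes below 0, none past the test) ran from 248 to 595 FPKM and from 11.2 to 534 FPKM, the 534 FPKM being that of m35, and macrophage markers (5 of 5 below 0, none past the test) from 387 to 653 FPKM and from 169 to 790.2 FPKM. Epithelial markers, with *Krt5* and *Krt14* at 0 in some mice, summed to 1.87 to 27.2 FPKM and 0.211 to 1.11 FPKM, with 1 past the test, lower, and progenitor markers to 191 to 297 FPKM and 117 to 232 FPKM, with 1 past the test, lower. The part of these cells in the differences given here was not tested, and in RNA of whole tissue fewer cells of a type and less RNA per cell cannot be told apart.

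By level, the set spanned from 1.93 FPKM in *Hsd17b10*, whose principal coding transcript was not analysed here, to 266 FPKM in *Acat1*. These are means over the 8 mice, and after *Acat1* came *Pcca* with 217 FPKM, *Ivd* with 182 FPKM and *Hibadh* with 152 FPKM. In all, 12 members had a mean of at least 100 FPKM, 13 a mean from 10 to under 100 FPKM and 6 a mean under 10 FPKM, namely *Bcat1*, *Ppm1k*, *Bdh1*, *Bdh2*, *Abat* and *Hsd17b10*. Among these 6 are the cytosolic transaminase, the BCKDH phosphatase and both 3-hydroxybutyrate dehydrogenases. FPKM is per length of transcript, but these sums include non-coding transcripts of each gene, as described further on.

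**Figure D2:**
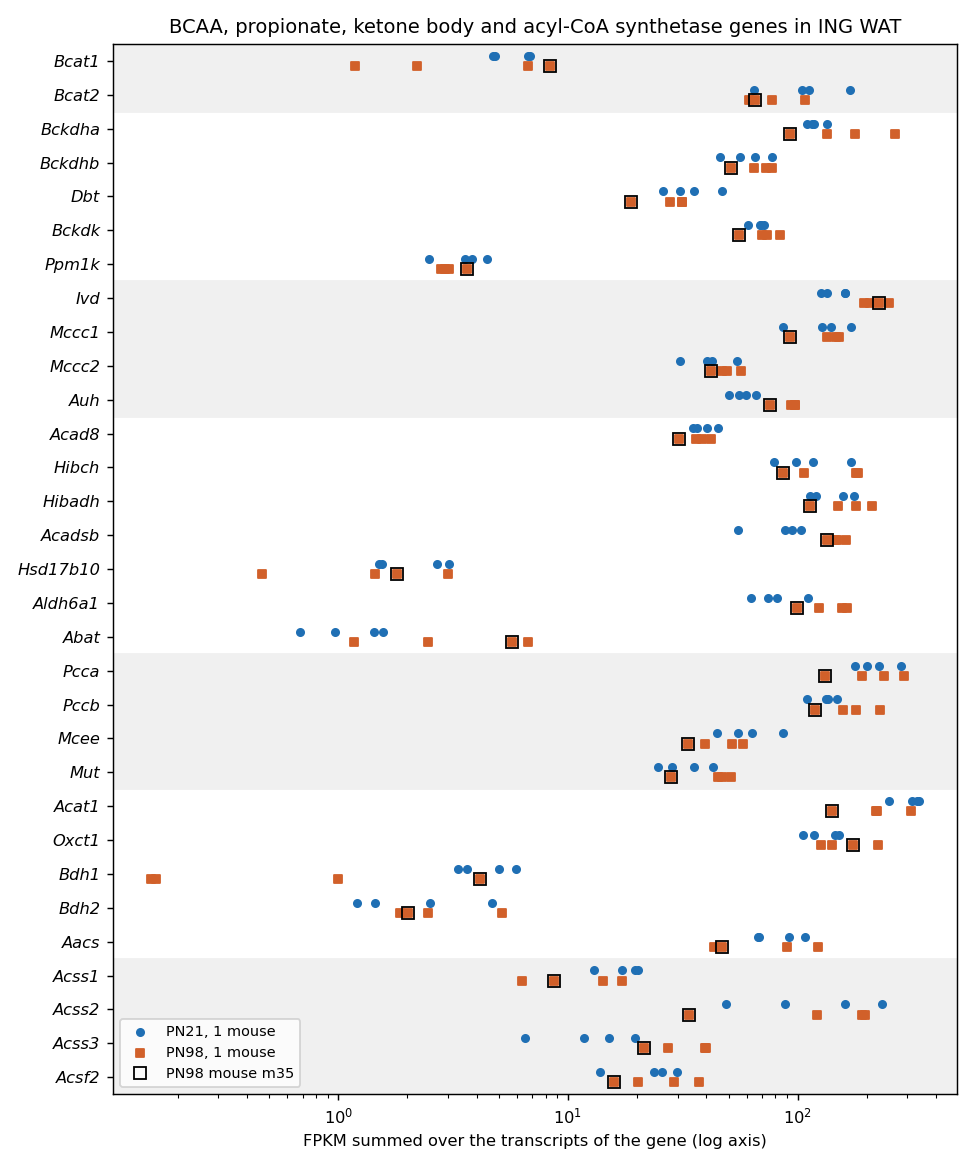
FPKM of each of the 31 genes in each of the 8 mice (horizontal log axis), in the order of the roles, with circles for PN21 mice, squares for PN98 mice and a black outline around m35. The PN98 mouse m35 is the lowest of its age in 20 of the 31 genes, and the widest spread among PN98 mice is seen in Bdh1, from 0.153 to 4.16 FPKM.

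The transaminases differ in where they work, *Bcat1* in the cytosol and *Bcat2* in mitochondria, where it is the form known from fat and muscle. *Bcat1* had 6.82, 4.80, 4.73 and 6.70 FPKM at PN21 and 8.36, 2.20, 6.69 and 1.18 FPKM at PN98. *Bcat2* had 105, 168, 64.8 and 112 FPKM at PN21 and 65.0, 61.5, 77.4 and 108 FPKM at PN98. Transcripts listed with *Bcat2* and another gene at once were left out of its sum. Both genes overlapped widely between the ages, with log2 fold changes of −0.50 (adjusted p = 0.487) and −0.48 (adjusted p = 0.331). *Bcat1* was spread over a 7.10-fold range among PN98 mice and a 1.44-fold range among PN21 mice. The log2 ratio of *Bcat1* to *Bcat2*, taken like all ratios here on FPKM + 1 (mean ± SD, n = 4 mice per age), was −4.01 ± 0.59 at PN21 and −4.02 ± 1.24 at PN98, so the mitochondrial form was the higher at both ages, and the exact permutation test over the mice gave p = 0.971 for the difference.

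In the BCKDH complex, *Bckdha* and *Bckdhb* encode the subunits of the decarboxylase and *Dbt* the transacylase core. *Bckdha* had 134, 115, 110.4 and 118 FPKM at PN21 and 92.4, 178, 134 and 265 FPKM at PN98 (log2 fold change 0.38, SE 0.30, adjusted p = 0.428). Its highest value, in m125, and its lowest, in m35, both lay at PN98. *Bckdhb* ran from 45.7 to 77.0 FPKM at PN21 and 51.5 to 77.6 FPKM at PN98 (log2 fold change 0.14, adjusted p = 0.688). *Dbt* had 35.4, 46.7, 26.0 and 30.9 FPKM at PN21 and 18.8, 31.4, 27.7 and 31.3 FPKM at PN98 (log2 fold change −0.33, adjusted p = 0.379). Here m49 was the highest PN21 mouse and m35 the lowest of all 8, and the remaining PN98 mice lay within the PN21 range. *Bckdk*, the kinase that inactivates the complex, had 69.3, 71.2, 68.6 and 61.0 FPKM at PN21 and 55.4, 73.8, 70.3 and 83.9 FPKM at PN98 (log2 fold change 0.054, adjusted p = 0.848). *Ppm1k*, the phosphatase that reactivates it, had 3.57 ± 0.818 FPKM at PN21 and 3.10 ± 0.376 FPKM at PN98 (SD, n = 4 each), with a log2 fold change of −0.14 that turned to 0.056 after scaling to nuclear genes (adjusted p = 0.608 as deposited). The log2 ratio of kinase to phosphatase was 3.92 ± 0.20 at PN21 and 4.12 ± 0.35 at PN98 (exact permutation test, p = 0.4). The 2 decarboxylase subunits had a log2 ratio of 0.98 ± 0.29 at PN21 and 1.23 ± 0.40 at PN98 (exact permutation test, p = 0.371).

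The leucine branch held *Auh*, the member with the lowest p, and *Ivd*. *Auh* (chromosome 13, 52835119 to 52929681, mm10) encodes 3-methylglutaconyl-CoA hydratase, which makes the 3-hydroxy-3-methylglutaryl-CoA of this route and also binds AU-rich RNA. It had 65.8, 55.3, 50.4 and 59.4 FPKM at PN21 and 76.1, 97.5, 93.6 and 97.8 FPKM at PN98. Every PN98 mouse was above every PN21 mouse, with a log2 fold change of 0.65 (SE 0.15, adjusted p = 0.0512). *Ivd* (chromosome 2, 118861954 to 118882909), isovaleryl-CoA dehydrogenase, the first enzyme of leucine breakdown after the BCKDH complex, had 161, 160.2, 134 and 126 FPKM at PN21 and 225, 208, 251 and 194 FPKM at PN98. Here too the ages did not overlap, with a log2 fold change of 0.59 (SE 0.16, adjusted p = 0.0670). When each mouse was left out, the log2 fold change ran from 0.59 to 0.73 for *Auh* and from 0.53 to 0.65 for *Ivd*. The adjusted p-values ran from 0.0166 to 0.142 and from 0.0459 to 0.154. Without overlap between the ages, leaving out 1 mouse could not turn the sign of either gene. Between these enzymes works 3-methylcrotonyl-CoA carboxylase, whose biotin-carrying subunit is encoded by *Mccc1* and the other by *Mccc2*. *Mccc1* had 139, 171, 86.3 and 128 FPKM at PN21 and 92.5, 151, 134 and 147 FPKM at PN98 (log2 fold change 0.018, adjusted p = 0.971). Its transcript Mccc1-201 held 40.7% of this sum, and transcripts that the annotation GENCODE vM21 does not hold made up the rest. With transcripts of vM21 alone the log2 fold change of *Mccc1* was 0.40 (adjusted p = 0.311, limma). *Mccc2* ran from 30.7 to 54.2 FPKM at PN21 and 41.8 to 56.8 FPKM at PN98 (log2 fold change 0.24, adjusted p = 0.462). Both subunits overlapped between the ages, and their log2 ratio was 1.61 ± 0.10 at PN21 and 1.39 ± 0.26 at PN98 (exact permutation test, p = 0.229).

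Among the 7 genes of the valine and isoleucine branches, 3 had an unadjusted p under 0.05, all with higher values at PN98, beside 8.2% of all genes with higher values. *Acadsb* (chromosome 7, 131410601 to 131448944), the short/branched chain acyl-CoA dehydrogenase of isoleucine, had 103, 87.7, 94.2 and 55.0 FPKM at PN21 and 134, 146, 149 and 162 FPKM at PN98. The highest PN21 value, in m1, lay below the lowest PN98 value, in m35, and the difference had a log2 fold change of 0.82 (SE 0.21, adjusted p = 0.0640). When each mouse was left out, it ran from 0.63 to 0.93, lowest without m145. The transcript Acadsb-205 had 0.0212 FPKM in m145 and 10.9 to 30.0 FPKM in the other PN21 mice. The part of this transcript in the difference was not tested. *Aldh6a1* (chromosome 12, 84430717 to 84451004), methylmalonate semialdehyde dehydrogenase at the end of the valine route, had 81.0, 111, 74.1 and 62.9 FPKM at PN21 and 99.4, 156, 124 and 164 FPKM at PN98 (log2 fold change 0.72, SE 0.23, adjusted p = 0.107). The PN21 mouse m49 was above the lowest PN98 mouse, m35. *Abat* (chromosome 16, 8513429 to 8621568), 4-aminobutyrate aminotransferase, which also acts on the 3-aminoisobutyrate that the valine route can give off, had 1.43, 0.683, 1.57 and 0.969 FPKM at PN21 and 5.69, 2.45, 6.72 and 1.17 FPKM at PN98 (log2 fold change 1.05, SE 0.40, adjusted p = 0.148). Its lowest PN98 mouse, m125, lay inside the PN21 range.

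The other genes of these branches overlapped between the ages. *Acad8*, isobutyryl-CoA dehydrogenase of valine, had 39.2 ± 4.49 FPKM at PN21 and 36.7 ± 4.74 FPKM at PN98 (SD, n = 4 each), with a log2 fold change of −0.10 (adjusted p = 0.711), which turned to 0.17 after scaling to nuclear genes. *Hibch*, which frees 3-hydroxyisobutyrate from CoA, had 116, 171, 98.0 and 79.2 FPKM at PN21 and 86.7, 179, 107 and 183 FPKM at PN98, and *Hibadh*, the dehydrogenase that follows, had 157, 175, 119.9 and 113 FPKM at PN21 and 113, 179, 150.3 and 209.9 FPKM at PN98. These consecutive enzymes shared m125 as their highest PN98 mouse, with log2 fold changes of 0.24 (adjusted p = 0.642) and 0.19 (adjusted p = 0.612). *Hsd17b10*, 2-methyl-3-hydroxybutyryl-CoA dehydrogenase of isoleucine, had 1.54, 3.02, 1.51 and 2.68 FPKM at PN21 and 1.796, 1.44, 0.467 and 3 FPKM at PN98 (log2 fold change −0.31, adjusted p = 0.539). Its principal coding transcript was not analysed here, so these values come from its other transcripts.

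Propionyl-CoA, from valine and isoleucine, is carboxylated by the enzyme of *Pcca* (biotin-carrying subunit) and *Pccb*, then passed to *Mcee* (epimerase) and rearranged to succinyl-CoA by *Mut* (the vitamin B12-dependent mutase). *Pcca* had 227, 282, 179 and 199 FPKM at PN21 and 131, 237, 190.0 and 289.5 FPKM at PN98 (log2 fold change −0.10, adjusted p = 0.824), which turned to 0.17 after scaling to nuclear genes. *Pccb* had 148, 136, 109.9 and 133 FPKM at PN21 and 118, 179, 157 and 229 FPKM at PN98 (log2 fold change 0.34, adjusted p = 0.334). Neither subunit separated the ages by itself. Their log2 ratio did, with 0.73 ± 0.22 at PN21 and 0.29 ± 0.11 at PN98, a difference of −0.44 with no overlap (exact permutation test, two-sided, p = 0.0286, the smallest that 4 against 4 mice can give). After adjustment over the 8 ratios computed, its p was 0.229 (exact permutation test), and with protein-coding transcripts alone the difference was −0.29 (exact permutation test, p = 0.257). *Mcee* ran from 44.7 to 86.7 FPKM at PN21 and 33.4 to 57.7 FPKM at PN98 (log2 fold change −0.43, adjusted p = 0.293), and *Mut* from 24.6 to 42.7 FPKM at PN21 and 28.1 to 51.3 FPKM at PN98 (log2 fold change 0.37, adjusted p = 0.349).

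Of the 5 ketone body genes, 2 had log2 fold changes above 0 and 3 below. *Bdh1* (chromosome 16, 31422280 to 31458901), the mitochondrial 3-hydroxybutyrate dehydrogenase, had 3.31, 5.95, 5.02 and 3.64 FPKM at PN21 and 4.16, 0.998, 0.153 and 0.160 FPKM at PN98. In the PN98 mice m106, m114 and m125 it was below every PN21 mouse, and in m35 it lay within the PN21 range. Its log2 fold change was −1.48 (SE 0.47, adjusted p = 0.104). When each mouse was left out, it ran from −1.95 to −1.23, with adjusted p-values from 0.00845 to 0.221. Both −1.95 and 0.00845 came from the fit without m35, where 17.9% of all genes passed with lower values. *Bdh2*, described as a cytosolic 3-hydroxybutyrate dehydrogenase, had 2.52, 1.21, 1.45 and 4.69 FPKM at PN21 and 2.01, 2.46, 5.18 and 1.86 FPKM at PN98 (log2 fold change 0.19, adjusted p = 0.749). The log2 ratio of *Bdh1* to *Bdh2* was 0.74 ± 0.90 at PN21 and −0.94 ± 1.33 at PN98 (exact permutation test, p = 0.0857, adjusted over the 8 ratios 0.343).

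*Acat1* (chromosome 9, 53580522 to 53610382), the mitochondrial acetoacetyl-CoA thiolase that serves both isoleucine and ketone bodies, had 313, 338, 251 and 332 FPKM at PN21 and 142, 219.9, 221 and 311 FPKM at PN98. Its lowest mouse was m35 and 3 of the 4 PN98 mice were below the lowest PN21 mouse, while m125 lay within the PN21 range, with a log2 fold change of −0.51 (SE 0.25, adjusted p = 0.214). *Oxct1*, which activates acetoacetate with succinyl-CoA for oxidation, had 151, 146, 118 and 105.7 FPKM at PN21 and 174, 141, 225 and 126 FPKM at PN98 (log2 fold change 0.33, adjusted p = 0.349). *Aacs*, which activates acetoacetate in the cytosol for lipid synthesis, had 91.8, 108, 67.9 and 66.9 FPKM at PN21 and 47.0, 43.1, 90.3 and 123 FPKM at PN98 (log2 fold change −0.25, adjusted p = 0.670), which turned to 0.018 after scaling to nuclear genes. The log2 ratio of *Oxct1* to *Aacs* was 0.65 ± 0.16 at PN21 and 1.23 ± 0.82 at PN98 (exact permutation test, p = 0.229), and its PN98 spread was wider than that at PN21.

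**Figure D3:**
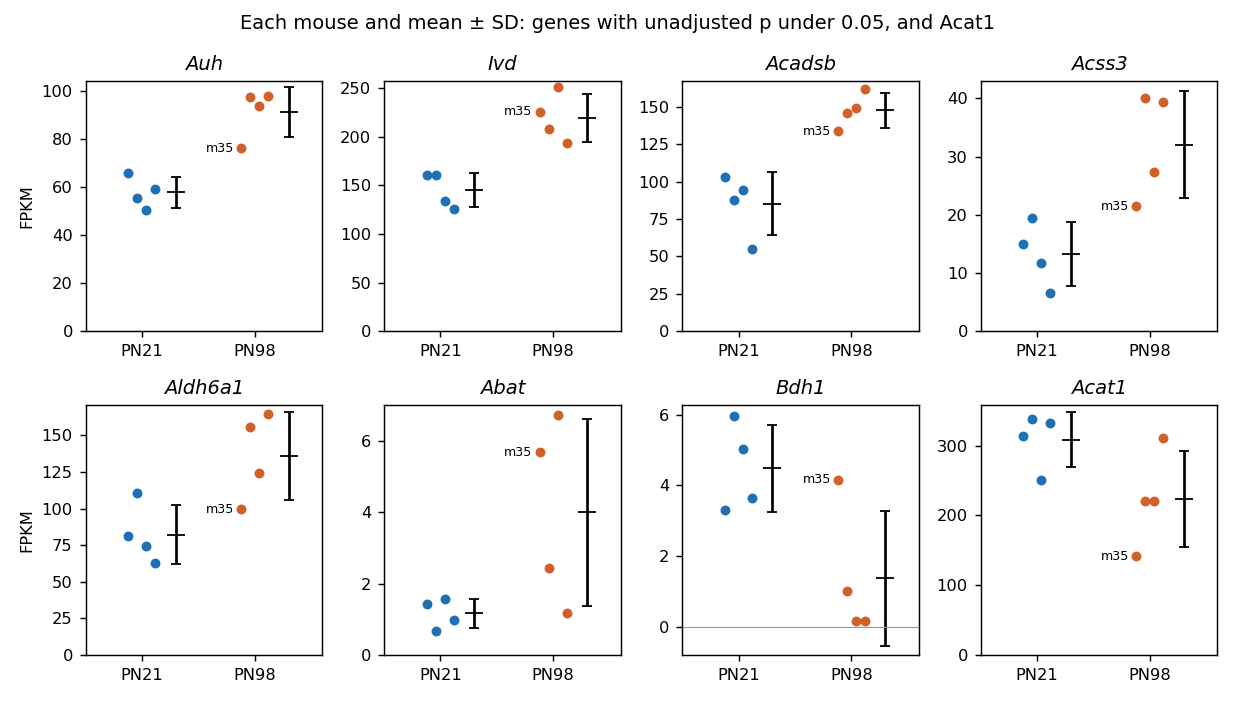
FPKM in each mouse (points) with mean ± SD (bars) at PN21 and PN98 for the 7 genes with an unadjusted p under 0.05 and for Acat1, 1 panel per gene with its own linear axis. The ages are apart in Ivd, Auh, Acadsb and Acss3, and in Bdh1 the PN98 mouse at 4.16 FPKM is m35 while the other PN98 mice are at 0.153 to 0.998 FPKM.

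Of the acyl-CoA synthetases, *Acss3* (chromosome 10, 106933517 to 107123668), a mitochondrial enzyme that prefers propionate, had 15.1, 19.5, 11.8 and 6.52 FPKM at PN21 and 21.4, 40.1, 27.3 and 39.4 FPKM at PN98. The highest PN21 mouse, m49, was below the lowest PN98 mouse, m35, with a log2 fold change of 1.26 (SE 0.34, adjusted p = 0.0719), the highest log2 fold change among the 31. *Acss1*, the mitochondrial acetyl-CoA synthetase, had 19.5, 17.2, 20.3 and 12.9 FPKM at PN21 and 8.66, 14.2, 6.31 and 17.3 FPKM at PN98 (log2 fold change −0.63, adjusted p = 0.220). *Acss2*, the cytosolic and nuclear acetyl-CoA synthetase that feeds lipid synthesis, had 161, 232, 88.2 and 48.5 FPKM at PN21 and 33.8, 121, 197 and 191 FPKM at PN98. It varied 4.78-fold among PN21 mice and 5.83-fold among PN98 mice, and its log2 fold change was −0.012 (adjusted p = 0.992), or 0.25 after scaling to nuclear genes. The log2 ratio of *Acss1* to *Acss2* was −2.64 ± 0.85 at PN21 and −3.25 ± 1.20 at PN98 (exact permutation test, p = 0.486). *Acsf2*, an acyl-CoA synthetase for medium chains, ran from 13.8 to 29.8 FPKM at PN21 and 15.9 to 37.3 FPKM at PN98 (log2 fold change 0.12, adjusted p = 0.833).

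**Figure D4:**
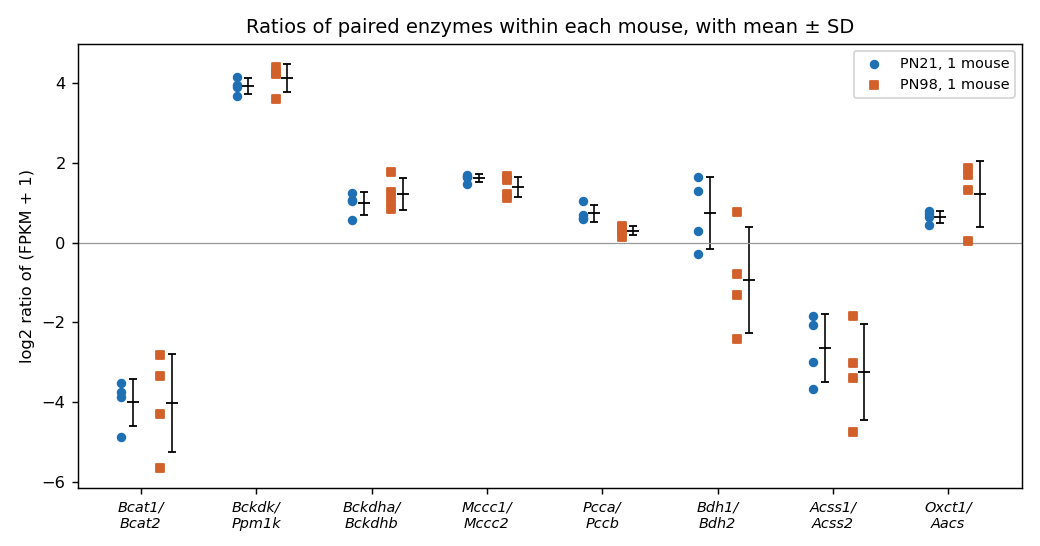
Log2 ratio of FPKM + 1 (vertical axis) for 8 pairs of genes in each mouse (circles for PN21, squares for PN98), with mean ± SD beside the points. The Pcca to Pccb ratio is the 1 pair in which the PN21 and PN98 mice do not overlap, with means of 0.73 and 0.29.

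Mouse m35 was the lowest of the 4 PN98 mice in 20 of the 31 members (64.5%) and in 19.3% of all genes. Mouse m125 was the lowest in 5 members (16.1%) and in 50.5% of all genes. At PN21, m138 and m145 were each the lowest in 14 members (45.2%), beside 21.0% and 30.9% of all genes. The highest of its age was m35 in 3 members, m125 in 18 and m49 in 19. The share of all genes was not computed for the highest mouse. Without m35, 6 members passed an adjusted p of 0.05, beside 22.2% of all genes. *Auh* then had a log2 fold change of 0.73 (adjusted p = 0.0166), *Ivd* 0.58 (adjusted p = 0.0459), *Acadsb* 0.87 (adjusted p = 0.0380), *Aldh6a1* 0.86 (adjusted p = 0.0347) and *Acss3* 1.44 (adjusted p = 0.0305). *Bdh1*, given above, was the sixth and the one with lower values. Of all genes, 4.29% passed with higher values and 17.9% with lower values in the same fit. The other 7 fits that each left out 1 mouse called 0 members, beside 1.06% to 3.41% of all genes. With *Ucp1* at 7.41 FPKM and the highest lymphocyte sum of its age, m35 also differed from the other PN98 mice outside the set, and the part of either in its member values was not tested.

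The summed values rest on different kinds of transcripts. Cufflinks divides fragments between the overlapping transcripts of a gene by a model, and protein-coding transcripts held 0.933% of the summed FPKM of *Acadsb*, 23.0% of that of *Ivd*, 29.9% of *Pcca* and 41.5% of *Acat1*, against 89.6% of *Auh* and 95.9% of *Acss3*. Across the members, the remainder was assigned to transcripts annotated as processed transcript, retained intron or subject to nonsense-mediated decay, or to transcripts that vM21 does not hold. With protein-coding transcripts alone, 2 of 30 testable members passed an adjusted p of 0.05, beside 8.69% of all genes (3.94% with higher values). These were *Auh*, which rose with a log2 fold change of 0.71 (adjusted p = 0.0368), and *Acss3*, which rose with 1.30 (adjusted p = 0.0410). *Ivd* then had a log2 fold change of 0.40 (adjusted p = 0.224), and *Acadsb*, whose coding transcripts had 0.610 ± 0.509 FPKM at PN21 and 1.56 ± 0.814 FPKM at PN98 (SD, n = 4 each), 0.67 (adjusted p = 0.168). This alternative was chosen after the values were seen.

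**Figure D5:**
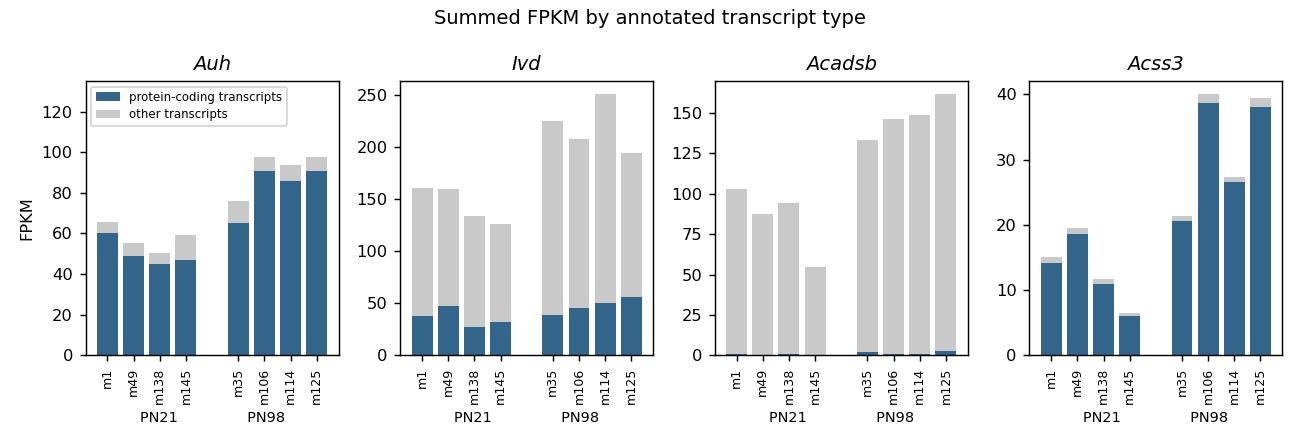
Summed FPKM (vertical axis, linear) of Auh, Ivd, Acadsb and Acss3 in each mouse, split into protein-coding transcripts (dark) and other annotated transcripts (grey). The dark part is 89.6% of the mean over the 8 mice in Auh and 95.9% in Acss3, but 23.0% in Ivd and 0.933% in Acadsb.

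Tested by transcript on log2(FPKM), 66 transcripts of 28 members passed the filter (above 0 in all 8 mice and a mean above 2 FPKM at either age), and 1 passed an adjusted p of 0.05, beside 1.29% of 23069 transcripts (0.698% with higher values). This was the protein-coding transcript Acss3-201, with 1.11, 1.20, 0.937 and 0.494 FPKM at PN21 and 2.50, 5.04, 5.54 and 6.28 FPKM at PN98. Its log2 fold change was 2.37 (SE 0.40, adjusted p = 0.0459, limma). With a mean of 0.934 FPKM at PN21 and 4.84 FPKM at PN98, it met the filter through PN98 alone. Where a mean above 2 FPKM was asked at both ages, 0 member transcripts passed, beside 0.517% of all transcripts. The principal transcript of the gene, Acss3-203, held most of its FPKM, with 13.0, 17.4, 10.03 and 5.59 FPKM at PN21 and 18.1, 33.7, 21.0 and 31.8 FPKM at PN98 (log2 fold change 1.25, adjusted p = 0.153). The principal transcripts of *Auh* (Auh-201) and *Ivd* (Ivd-201) had log2 fold changes of 0.62 (adjusted p = 0.175) and 0.41 (adjusted p = 0.311). An unadjusted p under 0.05 was reached by 11 of the 66 member transcripts, beside 21.7% of all transcripts. Of the 11, 10 had higher and 1 had lower values at PN98. The share of all transcripts in each direction was not computed, so this split is not read as a result. After scaling to nuclear genes, 0 member transcripts passed the adjusted threshold, beside 1.4% of all transcripts.

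Promoter sequence is shown for *Auh* and *Acadsb*, the members with the lowest adjusted p among those with higher values at PN98, and for *Bdh1*, the lowest among those with lower values. Each is the 250 bases before the RefSeq start in GRCm38.p6, read 5′ to 3′ on the strand of the gene, with GC boxes (GGGCGG or its reverse complement CCGCCC) in capitals.
Auh, chr13:52929678-52929927, minus strand: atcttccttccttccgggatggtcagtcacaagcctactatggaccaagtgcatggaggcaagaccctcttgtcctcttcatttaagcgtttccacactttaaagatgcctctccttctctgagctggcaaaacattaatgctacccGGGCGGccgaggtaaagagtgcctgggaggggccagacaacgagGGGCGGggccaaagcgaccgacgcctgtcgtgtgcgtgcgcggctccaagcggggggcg
Acadsb, chr7:131410351-131410600, plus strand: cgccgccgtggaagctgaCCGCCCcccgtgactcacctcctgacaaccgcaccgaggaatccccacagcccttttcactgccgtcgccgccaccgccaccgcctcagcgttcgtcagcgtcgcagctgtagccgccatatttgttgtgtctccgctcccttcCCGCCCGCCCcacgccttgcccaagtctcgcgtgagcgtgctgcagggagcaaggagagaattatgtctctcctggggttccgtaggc
Bdh1, chr16:31428503-31428752, plus strand: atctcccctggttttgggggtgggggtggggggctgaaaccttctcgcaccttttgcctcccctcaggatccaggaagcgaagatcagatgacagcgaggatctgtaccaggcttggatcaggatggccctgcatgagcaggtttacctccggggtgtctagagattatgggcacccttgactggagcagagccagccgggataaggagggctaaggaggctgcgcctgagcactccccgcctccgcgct

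The *Auh* window holds 2 GC boxes, the *Acadsb* window 3, of which 2 overlap, and the *Bdh1* window none. The windows of *Auh* and *Bdh1* reach 4 and 5 bases into an annotated exon, and that of *Acadsb* lies wholly upstream. The *Bdh1* window lies inside the annotated gene, at the start of a principal transcript, of which this gene has 3. RefSeq entries matched 26 of the 31 members, and *Acat1* had none. On either strand, a GC box was found in 13 of the 26 (50%) and in 32.7% of 32851 promoters, and CCAAT in 14 (53.8%) and in 33.8%. AGGTCA, the half-site of many nuclear receptors, was in 1 (3.85%) and in 14.02%, the E-box CACGTG in 1 (3.85%) and in 6.02%, and TATAAA in 2 (7.69%) and in 12.4%. These are matches of letters in a window and no measurement of binding.

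Other genes of the same pathways, 47 by a list of their own, were read beside the set, and 41 could be tested. Of these, 1 passed an adjusted p of 0.05, where 5.25% of all genes did (2.35% with higher values). It was *Acsm5*, a mitochondrial acyl-CoA synthetase of the medium-chain family. It had 0.904, 0.801, 0.576 and 1.12 FPKM at PN21 and 5.86, 3.29, 4.14 and 4.62 FPKM at PN98, and rose with a log2 fold change of 1.55 (SE 0.18, adjusted p = 0.00574). Its PN21 values lay near or under the mean of 1 FPKM that a gene needed, so it met the filter through PN98. With no filter on low values it also passed, beside 3.63% of all genes. Every PN98 mouse was above every PN21 mouse. *Acsm5* passed in all 8 fits that each left out 1 mouse, with adjusted p-values from 0.00590 to 0.0261 (limma). These fits kept the filter over all 8 mice. By role, 0 of 17 other BCAA and cofactor genes, 0 of 10 transporters, 1 of 8 other ketone and short-chain genes and 0 of 7 regulators passed, with 1 gene counted in 2 of these lists.

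*Dld*, the dehydrogenase subunit that BCKDH shares with other 2-oxoacid dehydrogenases, had 193, 263, 156 and 158 FPKM at PN21 and 74.7, 211, 123 and 229 FPKM at PN98 (log2 fold change −0.37, adjusted p = 0.530). As in many members, m35 was its lowest mouse. *Slc25a44*, the mitochondrial carrier of BCAA, had 20.4, 23.6, 15.4 and 10.2 FPKM at PN21 and 11.99, 23.0, 16.5 and 29.0 FPKM at PN98 (log2 fold change 0.19, adjusted p = 0.722). *Slc16a1*, a carrier of lactate and ketone bodies, ran from 25.6 to 35.3 FPKM at PN21 and 13.1 to 26.3 FPKM at PN98 (log2 fold change −0.70, adjusted p = 0.101), and *Klf15*, a transcription factor linked to BCAA breakdown, from 15.7 to 38.6 FPKM at PN21 and 13.6 to 31.5 FPKM at PN98 (log2 fold change −0.41, adjusted p = 0.451). *Slc7a5*, a carrier of large neutral amino acids, was not analysed here.

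Beside the median of 0.12 for the 31 members, 17 TCA cycle enzymes had a median log2 fold change of −0.68, with 16 of 17 below 0. The 19 genes of mitochondrial fatty acid oxidation, some of them also on the list of other BCAA genes, had a median of −0.32, with 15 of 19 below 0. Of all 16065 genes, 10759 were below 0. The 8 genes of fatty acid synthesis had a median of 0.11. None of these genes passed an adjusted p of 0.05 (limma). An unadjusted p under 0.05 with lower values was reached by 6 TCA cycle enzymes and 1 gene of fatty acid oxidation, beside 19.0% of all genes. After scaling to nuclear genes or by median of ratios, 0 of either list reached it. The share of all genes that reached it there was not computed, so this 0 is not read as a result. Under these scalings the median was −0.41 and −0.45 for the TCA cycle, with 13 of 17 below 0 in both, and −0.056 and −0.092 for fatty acid oxidation, with 10 and 11 of 19 below 0. For fatty acid synthesis it was 0.37 and 0.34. The difference between the lists was not tested. When each mouse was left out in turn, the median ran from −0.031 to 0.29 for the members, from −0.84 to −0.39 for the TCA cycle, from −0.54 to −0.037 for fatty acid oxidation, and from −0.30 to 0.83 for fatty acid synthesis.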

How the data were processed

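Poly(A)+ RNA of ING WAT had been sequenced on a HiSeq in paired ends. The submitters' processing notes name CASAVA 1.8.2, FastQC, STAR 2.3.0 and Cufflinks 2.1.1, with mm10 and Gencode version 15. The deposited values are FPKM per transcript as the authors wrote them, but many had lost their decimal mark. Marks were restored with the deposited SD, average and score, which rest on 10 values, 2 of them not listed. For each transcript with lost marks, a placement was kept where the 2 unlisted values that it implied were real and not negative. Of 40380 such transcripts 40242 were settled, 3212 of them because just 1 placement left the unlisted values with at most 6 significant digits, among these the principal transcripts of *Acss1*, *Acss2* and *Acsf2*. The 138 others were left out. A second deposited table of transcripts that the authors selected by p holds 4988 restored transcripts with intact marks, and all were equal in all 8 mice.

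FPKM were summed per gene by GENCODE vM21, and 1928 transcripts that vM21 does not hold were added to the only gene listed with them. Of 91969 transcripts, 1304 that belonged to no single gene were left out. Genes with a mean of at least 1 FPKM were compared, PN98 against PN21, with limma 3.58.1 (R 4.3.3) on log2(FPKM + 1), 4 mice per age, Benjamini-Hochberg adjusted. A fold change on this scale understates that of low genes. Transcripts were fitted on log2(FPKM), and ratios by a two-sided exact permutation test over 70 splits. The fits were tested on simulated data. The depth is unknown, since read counts were not used here. Columns of the authors' own comparisons, with fold changes and p-values, were not used. The genes named are all members, other pathway genes with an adjusted p under 0.05, and a few fixed ones with *Ucp1* and *Adipoq*, of which some are not reported here. The members and the lists were chosen with earlier results of these data known. Alternatives covered scaling, pseudocount, filters, weights, transcript choice and leaving out each mouse.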

Additional observations from a re-analysis of the deposited data

How the results depend on the processing

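No paired analysis was possible because the labels give each mouse an identifier of its own and no number shared between the ages. The count of all genes with an adjusted p under 0.05 (843) was 539 with a mean of at least 5 FPKM, 4620 with array weights and 170 to 3571 when each mouse was left out, highest without m35. Without restored transcripts it was 0 of 393 genes and no member could be tested. Of the 843, 377 were higher and 466 lower, against 537 and 253 after scaling to nuclear genes and 762 and 451 after median of ratios scaling. The members that passed (0) numbered 2 after scaling to nuclear genes, 3 after median of ratios scaling, 2 with no filter on low values (3.63% of all genes passed), 1 with an intensity trend and robust variance (5.48%), 6 with array weights (28.8% of all genes passed), 2 with protein-coding transcripts alone and 0 to 6 when each mouse was left out. Other pathway genes (1, *Acsm5*) numbered 2, 3, 2 and 6 under the scalings, the trend and the weights, and 2 with coding transcripts. They numbered 1 to 3 when each mouse was left out, and 0 with a mean of at least 5 FPKM, which *Acsm5* did not reach. Besides *Acsm5* these included *Hcar2*, *Slc16a7*, *Slc16a6*, *Acaa2*, *Acsm3*, *Ppargc1a* and *Ppargc1b*, named because they passed there. The member transcripts that passed (1) were 0 after scaling to nuclear genes, where 1.4% of all transcripts passed. They were 0 with a mean above 2 FPKM at both ages (0.517% of all transcripts passed). When each mouse was left out they were 0 to 3, the 3 without m35, where 7.35% of all transcripts passed. Of the 31 members, 22 kept their sign in every alternative. The sign of *Ppm1k* turned to 0.056 and 0.036, *Acad8* to 0.17 and 0.13, *Pcca* to 0.17 and 0.13, and *Acss2* to 0.25 and 0.22 under the first and second scaling, and *Aacs* to 0.018 under the first. With coding transcripts *Acad8* was 0.0038 and *Pcca* 0.059, and the log2 ratio difference of *Bcat1* to *Bcat2* was 0.36 and that of *Mccc1* to *Mccc2* 0.16. *Acss1* to *Acss2* differed by 0.052 without restored transcripts. The transcripts left there had means of at most 0.384 FPKM, under the 1 added to each FPKM, so this value says little about the ratio. When each mouse was left out, the log2 fold change ran from −0.031 to 0.17 for *Bckdk*, −0.17 to 0.18 for *Mccc1*, −0.27 to 0.11 for *Pcca*, −0.057 to 0.46 for *Bdh2*, −0.41 to 0.55 for *Acss2*, −0.10 to 0.31 for *Acsf2* and −0.027 to 0.40 for *Slc25a44*, the difference of the *Bcat1* to *Bcat2* ratio from −0.42 to 0.52, and the median of the members from −0.031 to 0.29. The cause of these shifts was not tested. The settings on transcript type and annotation were chosen after seeing the data. Restricting the sums to transcripts of vM21, or placing retired transcripts by coordinates, left 0 members past the threshold. The missing read counts and the 4 mice per age limit the precision.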

Other observations

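In 1 PN21 mouse, m145, 478 transcripts were under 0.1 FPKM while each of the other 7 mice had at least 1 FPKM. The same pattern was seen in 37 to 199 transcripts in each of the remaining mice. Of these transcripts, 5 in m145 belonged to members, 1 each of *Acadsb*, *Acsf2*, *Acss2*, *Bckdk* and *Mccc1*, and 0 in the other mice. *Hcar2*, the receptor for 3-hydroxybutyrate and nicotinic acid, and *Slc16a7*, a carrier of pyruvate and other monocarboxylates, had higher values in every PN98 mouse than in any PN21 mouse. Of the 41 other pathway genes tested, 3 were higher and 2 lower at PN98 without overlap, beside 6.06% and 10% of all genes. *Hcar2* had 17.4, 5.92, 11.9 and 6.90 FPKM at PN21 and 19.8, 27.2, 30.4 and 26.7 FPKM at PN98, for a log2 fold change of 1.33 (adjusted p = 0.0536, limma). *Slc16a7* had 4.12, 5.61, 3.64 and 3.58 FPKM at PN21 and 7.45, 6.18, 10.8 and 6.48 FPKM at PN98, for a log2 fold change of 0.73 (adjusted p = 0.0863, limma). Both were chosen after their values were seen.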
